A study of Mus musculus with 2 samples.

Results

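Cd209-high Fcna macrophages made up 129 of 5098 sciatic nerve macrophages profiled as single cells. A cell was a droplet barcode with at least 500 UMIs (unique molecular identifiers, each counting 1 captured transcript) and at least 200 genes. A cell was a member with at least 2 UMIs summed over 5 genes, Cd209b, Cd209d, Cd209f, Cd209g and Fcna, and all other cells served as the comparison. The levels of these 5 genes in members follow from that choice and are given as a description only.

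The macrophages were sorted as CD64+ CD45int cells from sciatic nerves of 19 male Flt3-Cre LSL-YFP fl/fl mice aged 10 to 12 weeks. In these mice the Flt3 promoter drives Cre, so multipotent progenitors that arise from haematopoietic stem cells, and their descendants, carry YFP, and all animals carry the same alleles. YFP negative and YFP positive cells of the pooled nerves each gave a single 10x Chromium library, so the mice cannot be told apart and neither condition has a replicate. There were 37 members of 1045 cells in the YFP negative library and 92 members of 4053 cells in the YFP positive library. The YFP conditions could therefore not be tested. Members and other cells were compared within each of the 2 libraries, where an exact permutation test over 2 pairs cannot go below a two-sided p of 0.5 and where the members were chosen from the same cells, so no p-value is given. All intervals are 95% intervals that cover counting error alone.

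The libraries held 3653688 UMIs over 124162 barcodes (YFP negative) and 9365598 UMIs over 187104 barcodes (YFP positive). Members supplied 76522 and 177315 of these UMIs, with a median of 1994 UMIs and 1024 genes per YFP negative member and 1820.5 UMIs and 893.5 genes per YFP positive member. The range was 534 to 4547 UMIs and 508 to 4905 UMIs. Other cells had a median of 2256 and 1480 UMIs, and the share of mitochondrial UMIs was near 1% in members (medians 1.15% and 1.19%) and in other cells (0.998% and 0.995%). The libraries shared 7 cell barcodes, of which 1 was a member in either library and 0 were members in both.

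Cd209 genes encode C-type lectins of the DC-SIGN family, cell surface receptors that bind glycans on microbes and on other cells. Fcna encodes ficolin A, a secreted lectin that can start the lectin pathway of complement. Macrophages that combine such lectins with the hyaluronan receptor Lyve1, the secreted protein RELM alpha (Retnla) and the galactose-binding lectin Clec10a are known from connective tissue and from the borders of organs, including the sheath around nerves. The cells here were dissociated before capture, so the nerve layer that each came from was not measured.

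Of the rule genes, Cd209f was found in the largest number of members, with a UMI in 23 of 37 YFP negative and 54 of 92 YFP positive members. Cd209d was found in 16 and 34 members, Cd209g in 14 and 32, Fcna in 19 and 38, and Cd209b in 5 and 20. A single member held at most 13 UMIs of any of the 5 genes, so each cell was called on few molecules. UMIs of at least 2 different rule genes were present in 25 of 37 and 52 of 92 members, and all 5 genes were present in 2 and 1 members. Of members with UMIs of 1 rule gene, 5 and 10 had Fcna alone, and 1 and 15 had Cd209f alone. The median member had 2 rule UMIs in the YFP negative and 3 in the YFP positive library.

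The 4 Cd209 genes of the rule and Cd209a lie near each other on chromosome 8 of the GRCm38 build that was used for mapping. In the GENCODE M21 annotation Cd209a spans chr8:3743397-3748984, Cd209d chr8:3871824-3878555, Cd209b chr8:3917655-3926844 and Cd209f chr8:4102787-4105835, all on the minus strand, and Cd209g spans chr8:4134098-4137707 on the plus strand. Fcna lies at chr2:25624666-25628030 on the minus strand and is overlapped on the other strand by Fcnaos. Retnla lies at chr16:48842551-48844461 on the plus strand.

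The bases just before the start of Cd209f and Cd209g are shown because the pair shares a long identical run there. The windows come from RefSeq (GRCm38.p6), are written 5' to 3' along the gene's own strand, and stop before the first exon base of a coding transcript in GENCODE M21. The Cd209g window lies within the span given above, since a GENCODE transcript with no coding sequence starts further upstream. They cover chr8:4105836-4106014 (Cd209f, minus strand) and chr8:4134486-4134651 (Cd209g, plus strand), and the capitals mark the longest run common to both, 83 bases.
Cd209f: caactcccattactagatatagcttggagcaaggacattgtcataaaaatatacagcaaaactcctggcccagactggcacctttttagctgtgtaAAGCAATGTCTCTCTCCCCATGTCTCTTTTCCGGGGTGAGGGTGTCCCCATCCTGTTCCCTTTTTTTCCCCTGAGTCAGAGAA
Cd209g: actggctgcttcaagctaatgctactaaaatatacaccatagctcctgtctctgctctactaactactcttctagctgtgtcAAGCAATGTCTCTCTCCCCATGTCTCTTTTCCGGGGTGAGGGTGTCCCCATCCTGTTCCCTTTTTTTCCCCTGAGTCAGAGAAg
At the best common offset 118 of 165 bases were identical (71.5%). The genes are close paralogs, and how reads were assigned between them was not tested, so their separate counts are uncertain.

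The windows of Fcna and Retnla are shown because these are the rule gene outside the Cd209 cluster and the gene outside the rule with the highest ratio in both libraries among genes with a mean of at least 50 CPM. They cover chr2:25628031-25628224 (Fcna, minus strand) and chr16:48842359-48842550 (Retnla, plus strand). Capitals mark matches on either strand. In Fcna they mark 3 copies of GAGGAA, a core recognised by the macrophage factor PU.1, and in Retnla 1 pair of STAT6 half-sites, TTC and GAA with any 4 bases between them, which reads the same on both strands. The Retnla window also holds a GAGGAA match on the other strand, left in lower case.
Fcna: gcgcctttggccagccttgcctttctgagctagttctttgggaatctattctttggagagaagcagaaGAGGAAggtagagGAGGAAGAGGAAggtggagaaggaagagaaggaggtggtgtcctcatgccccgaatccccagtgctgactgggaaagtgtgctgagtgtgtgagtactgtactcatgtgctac
Retnla: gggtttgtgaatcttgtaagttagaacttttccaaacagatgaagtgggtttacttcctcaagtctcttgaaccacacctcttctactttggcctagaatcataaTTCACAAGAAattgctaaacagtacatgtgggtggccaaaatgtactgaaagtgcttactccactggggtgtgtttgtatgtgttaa
Over the 250 bases before the start of 32851 RefSeq promoters, GAGGAA or its reverse complement was present in 23.3% and the half-site pair in 5.85%. The ETS core CCGGAA, searched in the same way, was present in 12.0% of promoters, among them those of Cd209a, Cd209b, Cd209f and Cd209g but not of Cd209d, Fcna, Retnla, Ccl8 or Ednrb. In Cd209f and Cd209g the match lies within the shared run, so it is 1 sequence seen in both. A match is a string of letters in this window and not a measured binding site.

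The rule genes were chosen with these data known, so their levels in each other's cells are also given as a description only. Each gene was left out in turn, and cells were chosen by at least 2 UMIs of the other 4. Cd209f then reached 705 CPM (counts of the summed cells scaled to 1000000 UMIs, 501 to 963) in 24 YFP negative cells, against 4.93 CPM in cells with 0 UMIs of the other 4. In 65 YFP positive cells it reached 547 CPM (429 to 687) against 8.08 CPM. Cd209g reached 361 CPM (236 to 529) against 2.26 CPM, and 251 CPM (181 to 339) against 2.23 CPM. Fcna reached 241 against 14.9 CPM and 210 against 13.1 CPM, Cd209d 243 against 9.32 CPM and 196 against 7.27 CPM, and Cd209b 81.0 against 4.95 CPM and 94.5 against 8.65 CPM. Each of the 5 genes had the higher level in cells chosen by the other 4 in both libraries. This describes genes that were picked together and was not a test, and the limit given above on the split between Cd209f and Cd209g applies.

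The genes below differed between cells with 0, 1 and 2 rule UMIs, also across the threshold. Retnla stood at 347 CPM in the 956 YFP negative cells with 0 rule UMIs, 1951 CPM in the 52 cells with 1, and 6543 CPM in the 19 cells with 2. In the YFP positive library it stood at 721 CPM (3803 cells), 1987 CPM (158 cells) and 3962 CPM (42 cells). The cells just outside the rule were thus between the other groups in both libraries. Ednrb, an endothelin receptor, went from 48.0 to 114 to 826 CPM and from 29.2 to 96.3 to 218 CPM. Clec10a went from 213 to 402 to 1080 CPM and from 132 to 257 to 448 CPM. The fractalkine receptor gene Cx3cr1 went the other way, from 285 to 167 to 95.3 CPM and from 348 to 254 to 84.8 CPM. Not every gene followed these steps, as Lyve1 stood at 290, 266 and 1143 CPM in YFP negative cells. Above 2 rule UMIs the order did not go on in YFP negative members, where Retnla was at 0 UMIs in the 3 cells with 3 rule UMIs and at 5262 CPM in the 7 cells with 4 to 5. Ednrb was at 0 UMIs and 117 CPM, and Cx3cr1 at 145 and 175 CPM, in the same cells. In YFP positive members Retnla was at 13594 CPM in the 18 cells with 3 rule UMIs and 19214 CPM in the 13 cells with 4 to 5, and Ednrb at 290 and 673 CPM. The order did not go on throughout there either. Retnla was at 18570 CPM in the 16 cells with 6 to 10 rule UMIs and 13141 CPM in the 3 cells with at least 11. Ednrb was at 562 and 126 CPM in the same cells. Cx3cr1 was at 226 CPM in the 18 cells with 3 rule UMIs and 42.0 CPM in the 13 cells with 4 to 5.

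**Figure D1:**
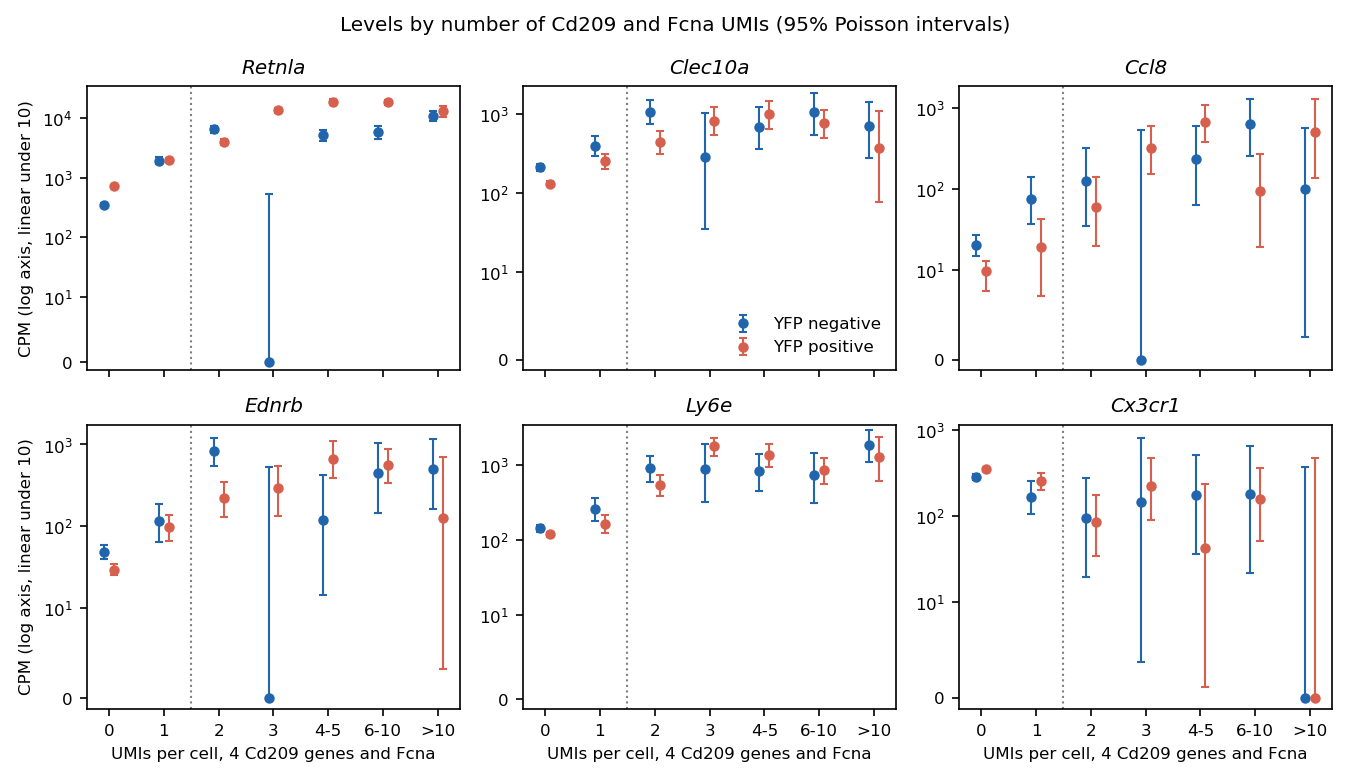
Level of 6 genes (CPM of summed cells, log axis that is linear under 10) against the number of UMIs of the 4 Cd209 genes and Fcna in a cell, with 95% Poisson intervals, for the YFP negative (blue) and YFP positive (red) library; cells right of the dotted line are members. Retnla, Clec10a, Ccl8, Ednrb and Ly6e are higher in cells with 1 than with 0 and in cells with 2 than with 1, in both libraries, while Cx3cr1 is lower at each of these steps.

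Free RNA in the suspension also held rule genes. In barcodes with 10 to 100 UMIs the 5 genes together were at 189 and 136 CPM, against 2130 and 1968 CPM in members and 22.2 and 24.0 CPM in other cells. Retnla was at 1504 and 1725 CPM in these barcodes and Sparc, a matrix protein gene, at 297 and 454 CPM. Of cells with at least 3 UMIs of fibroblast, mural or Schwann cell genes, which within this sort may be macrophages that carry stromal RNA, 2.34% (3 of 128, median 3182.5 UMIs) and 2.16% (8 of 370, median 2289.5 UMIs) passed the rule. These shares lie near those of all cells, 3.54% (exact interval 2.505 to 4.848) and 2.27% (1.83 to 2.78). By a Poisson count averaged over the depths of all cells, a barcode of free RNA only would pass the rule in 7.99% and 2.63% of cases. With 10% free RNA in a barcode, that RNA alone would pass it in 0.114% and 0.0325%. Sparc was at 0 UMIs in YFP negative and 1 UMI in YFP positive members. Retnla was higher in members than in the free RNA in both libraries, and higher in the free RNA than in other cells (437 and 781 CPM). The part of free RNA in single calls was not tested.

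The label of the cells was set beside their genes as a description. All 13 genes of a list for the sort and for macrophage identity were detected in members of both libraries, among them the growth factor receptor Csf1r at 1294 and 1122 CPM, and Fcgr1, which encodes CD64, with 5 and 14 UMIs. Of the 13, Cx3cr1 alone was called lower in members. Retnla, Clec10a and Ccl8, the 3 markers given with the type that the rule did not use, were each higher in members in both libraries. All cells were sorted as macrophages and the markers were named with these data known, so neither result is a test of the label. The cells carry macrophage genes and the named markers, whereas their place in the nerve is not in the files.

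Between members and other cells, 5529 genes had a mean level of at least 20 CPM. Of these, 73 were at least 2-fold higher in members in both libraries (1.32%) and 152 at least 2-fold lower in both (2.75%). Another 26 and 22 genes passed 2-fold in opposite directions in the 2 libraries. The lower calls rest on few molecules, since 148 of the 152 genes had 3 UMIs or fewer in YFP negative members. Among the 2632 genes with a mean of at least 50 CPM, 30 were higher, 38 lower and 0 opposite, and across these genes the log2 ratios of the libraries had r = 0.39, where the genes share cells and depth within each library. Of the 20 genes with the highest ratio in YFP positive members, 18 were at least 2-fold higher in YFP negative members, where 4.41% of the 2632 genes were.

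**Figure D2:**
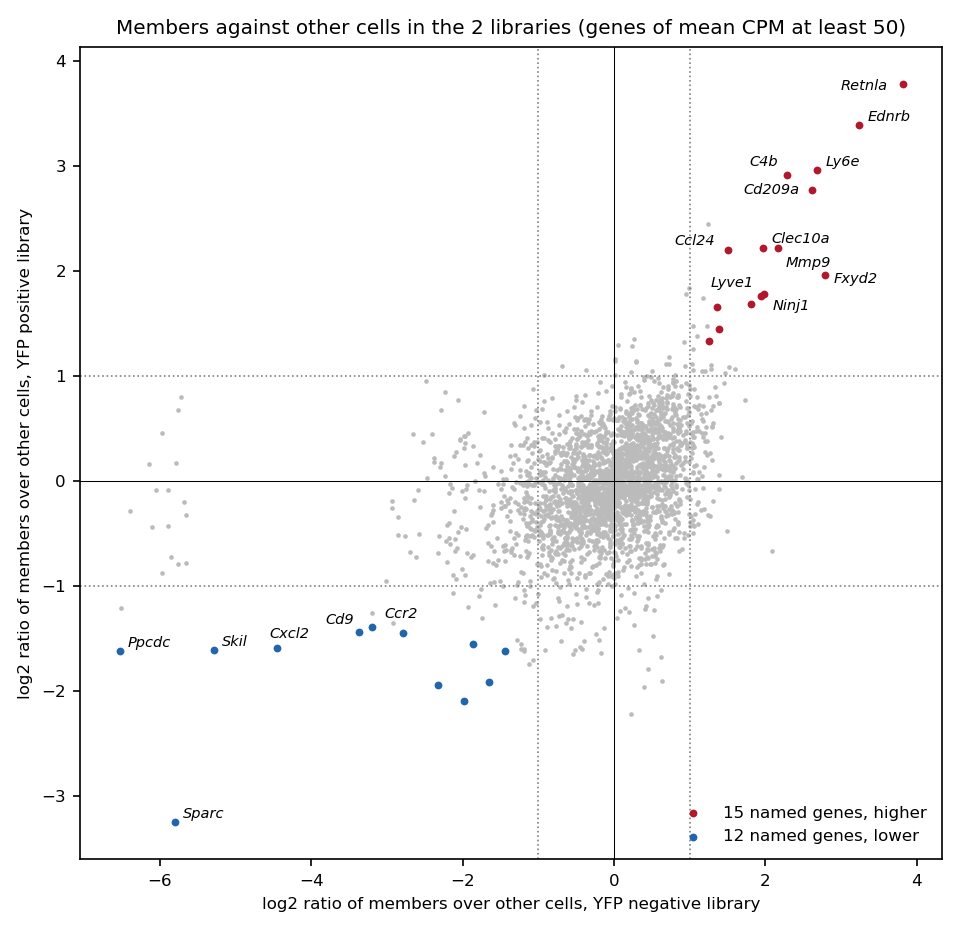
Log2 ratio of members over other cells in the YFP negative library (x axis) and the YFP positive library (y axis) for genes with a mean of at least 50 CPM; dotted lines mark 2-fold, and red and blue points are the 15 genes named as higher and 12 named as lower. Retnla, Ednrb, Ly6e and Cd209a stand apart at the upper right, and points left of -2 on the x axis are genes with 0 to 3 UMIs in YFP negative members, other than Ier2, Ckb and Hspa1a with 10, 4 and 6.

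Retnla, which encodes a secreted protein induced by interleukin 4, had the highest ratio among the genes with a mean of at least 50 CPM. It had 472 UMIs in YFP negative members, 6168 CPM (5624 to 6751) against 437 CPM in other cells, and 1905 UMIs in YFP positive members, 10744 CPM (10267 to 11237) against 781 CPM. The log2 ratio (with 1 CPM added to both levels) was 3.82 (3.66 to 3.98) and 3.78 (3.70 to 3.86), or 14.1-fold and 13.8-fold. Single cells weighed on this sum, as 1 member held 106 of the 472 UMIs and another 149 of the 1905, and without these members the log2 ratio was 3.499 and 3.69. Within cells of like depth the ratio was 3.44, 4.02, 3.61 and 1.55 (log2) in YFP negative cells of 500 to under 1000, 1000 to under 2000, 2000 to under 4000 and at least 4000 UMIs, and 4.72, 4.12, 3.49 and 2.04 in YFP positive cells, where it was smaller in each deeper bin. The deepest bin held 1 and 3 members, and its intervals were -0.75 to 3.15 and 1.44 to 2.60.

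Clec10a was at 876 CPM (679 to 1112) against 223 CPM in the YFP negative library and at 649 CPM (536 to 778) against 138 CPM in the YFP positive library, 3.92-fold and 4.70-fold. Ccl8, a chemokine that attracts monocytes and T cells, had 16 and 38 UMIs in members, 209 CPM (120 to 339) against 23.5 CPM and 214 CPM (152 to 294) against 10.4 CPM. Its log2 ratio of 3.10 (2.21 to 3.91) and 4.25 (3.65 to 4.81) was thus less precise. All 3 markers had member intervals above the level in other cells in both libraries.

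Several membrane proteins were higher in members. Ednrb was at 497 CPM (351 to 682) against 51.7 CPM, 9.61-fold, and at 350 CPM (268 to 448) against 32.4 CPM, 10.8-fold, and was found in 20 and 33 members. Ly6e, a lipid-anchored surface protein induced by interferon, was at 967 CPM (759 to 1214) against 149 CPM, 6.47-fold, and at 942 CPM (804 to 1096) against 120 CPM, 7.82-fold. Fxyd2, a subunit that modulates the sodium pump, was at 784 against 113 CPM and at 451 against 115 CPM. Ninj1, a surface protein with a role in membrane rupture of dying cells, was at 1241 against 314 CPM and at 829 against 240 CPM. Cd38, an enzyme that degrades NAD, was at 196 against 74.3 CPM and at 147 against 53.1 CPM. For these 5 genes, too, the intervals of members lay above the level of other cells in both libraries.

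Of 26 further C-type lectin and collectin genes, 15 passed the level filter, 3 were higher in both libraries and 0 lower. Cd209a, the neighbour of the rule genes that the rule left out, was at 314 CPM (201 to 467) against 50.4 CPM and at 288 CPM (214 to 378) against 41.2 CPM, log2 2.61 and 2.77. Cd209e and Cd209c were too rare to compare, with 2 and 2 UMIs and 0 and 3 UMIs in members. Clec10a and Colec12, a scavenger receptor, were the other genes called, Colec12 with log2 1.18 and 1.74. Mgl2, the close relative of Clec10a, was at 954 against 1096 CPM and at 1088 against 1104 CPM, log2 -0.20 and -0.02. The mannose receptor gene Mrc1 had log2 0.54 and 0.30. The median of the tested genes of this list was -0.15 and -0.02, against -0.06 and -0.04 for all genes tested, so the higher level was found in a few lectins and not across the list.

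The list of resident scavenger macrophage genes had 23 of 27 genes tested, 8 higher in both libraries and 0 lower, with a median log2 ratio of 0.62 and 0.69. The members called were Lyve1, Folr2, Timd4, Ednrb, Ltc4s, Cd38, Fcgrt and Ninj1. Lyve1 was at 1111 CPM (887 to 1374) against 288 CPM and at 739 CPM (618 to 877) against 217 CPM. Timd4, a receptor for phosphatidylserine on dying cells, had 12 and 18 UMIs and log2 2.71 and 2.05. The folate receptor gene Folr2 had log2 1.23 and 1.47, Ltc4s, which makes leukotriene C4, 1.05 and 1.47, and the Fc receptor gene Fcgrt 1.04 and 1.06. Other genes of the list were higher by less than 2-fold, as Cd163, the haemoglobin scavenger receptor, with log2 0.40 and 0.42, F13a1 with 0.71 and 0.88 and Pf4 with 0.58 and 0.68. The median of the list lay above that of all genes tested in both libraries. The list was chosen with earlier results of these data known, so this is a description and not a test.

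**Figure D3:**
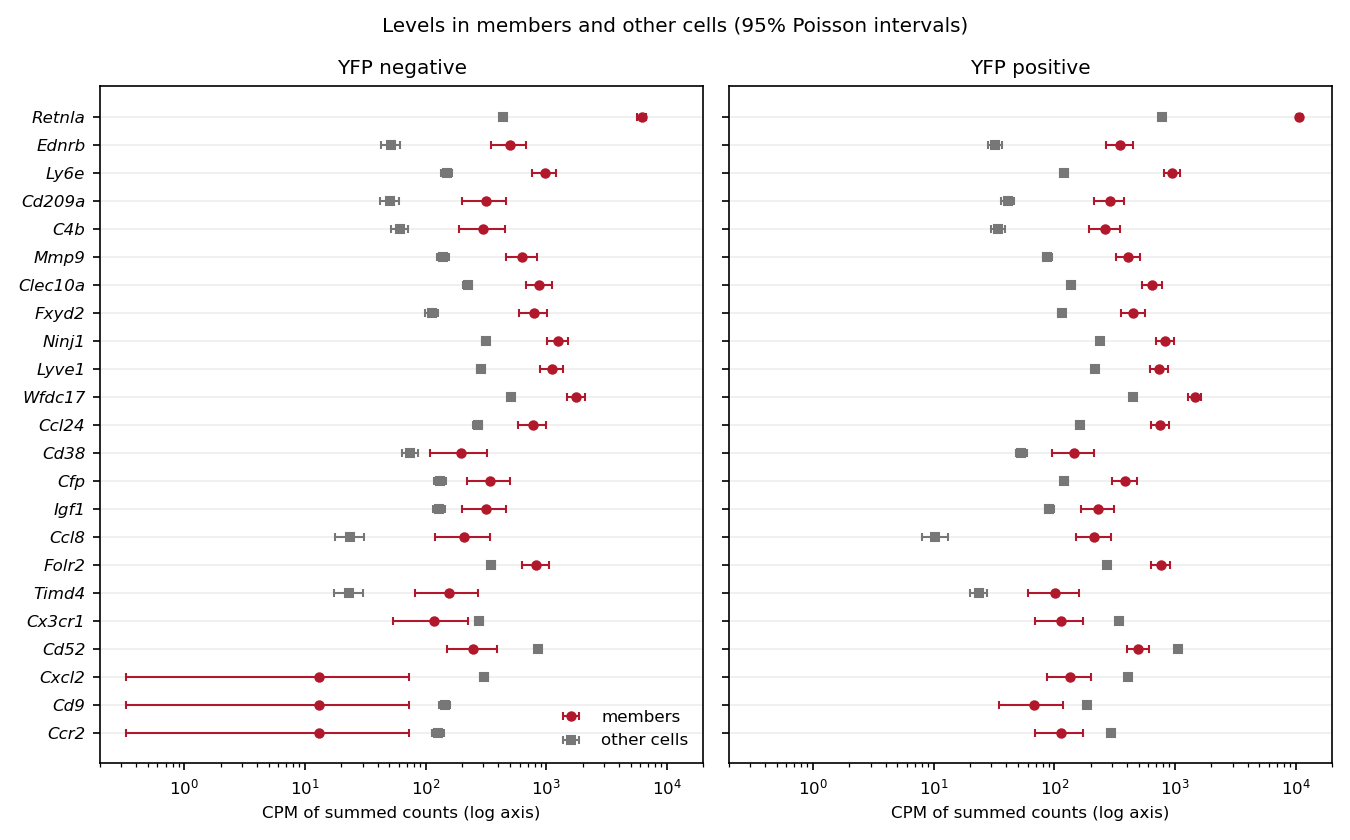
Level of 23 genes in members (red circles) and other cells (grey squares), in CPM of summed counts on a log axis, with 95% Poisson intervals, for the YFP negative (left) and YFP positive (right) library. Member points lie right of the grey squares from Retnla to Timd4 and left of them from Cx3cr1 to Ccr2, and the wide intervals at the lower left are genes with 1 UMI in YFP negative members.

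Genes of alternative activation, the programme set by interleukin 4 and interleukin 13, gave 4 of 13 tested genes higher (Retnla, Ccl8, Ccl24 and Clec10a) and 1 lower (Egr2, with 1 and 4 UMIs), with medians of 0.54 and 0.38. Ccl24, which attracts eosinophils, was at 771 CPM (587 to 995) against 269 CPM and at 750 CPM (628 to 889) against 162 CPM. Of 12 chemokine ligand genes tested, Ccl8 and Ccl24 were higher and Ccl2 and Cxcl2 lower, with medians of 0.03 and -0.02. Ccl6 had log2 0.94 and 1.10 and stayed just under the call in the YFP negative library. Ccl7 went in opposite directions, with log2 2.09 (1.44 to 2.69) and -0.66 (-1.65 to 0.17), and 12 of its 26 UMIs in YFP negative members came from 1 cell, so no common direction can be given.

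Genes of 2 soluble complement components were called higher, and 0 lower, among the 12 complement and lectin pathway genes tested. C4b was at 301 CPM (190 to 451) against 61.1 CPM and at 265 CPM (195 to 352) against 34.2 CPM, log2 2.28 and 2.92. Cfp, which encodes properdin, the stabiliser of the alternative pathway, was at 340 against 132 CPM and at 383 against 121 CPM. C1qa, by contrast, was at 5841 against 6171 CPM and at 6113 against 6100 CPM, and the list's median was -0.03 and -0.02. Members thus differed in C4b and Cfp, while the interval for C1qa included no difference in both libraries. Among other secreted products, the gelatinase gene Mmp9 was at 627 against 139 CPM and at 412 against 87.5 CPM, Wfdc17 at 1777 against 508 CPM and at 1455 against 450 CPM, and the growth factor gene Igf1 at 314 against 130 CPM and at 231 against 91.2 CPM. Of 8 growth factor genes tested, Igf1 and Ecm1 were higher and 0 were lower.

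Homeostatic genes known from microglia and endoneurial macrophages were called in 1 direction at 2-fold, whereas at 1.5-fold 2 were higher and 6 lower. Of 18 such genes tested, 0 were higher and 4 lower (Cx3cr1, Sparc and Lilra5 among them), with medians of -0.21 and -0.13. Sparc had a UMI in only 4.17% and 3.79% of other cells and was at 297 and 454 CPM in free RNA. The part of stromal RNA in its ratio was not tested. Cx3cr1 was at 118 CPM (53.8 to 223) against 278 CPM and at 113 CPM (68.9 to 174) against 343 CPM, log2 -1.23 and -1.60. Lilra5, an immunoglobulin-like receptor gene, had 3 UMIs in YFP negative members, where other cells were at 146 CPM (log2 -1.87, interval -4.02 to -0.33), and 9 UMIs in YFP positive members, 50.8 against 150 CPM (log2 -1.55, interval -2.65 to -0.63). Of 25 activated microglia genes tested, Ctsd and Igf1 were higher and Cd9 and Cd52 lower. Cd52, a small surface glycoprotein gene, was at 248 CPM against 855 CPM and at 496 CPM against 1062 CPM, and Cd9 had 1 and 12 UMIs. Of the genes called lower in these lists, Cd52 and Cx3cr1 had the most UMIs in YFP negative members, 19 and 9.

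Of 7 monocyte genes tested, S100a10 was higher and Ccr2 lower. Ccr2, the receptor that brings monocytes into tissue, had 1 UMI in YFP negative members against 128 CPM in other cells (log2 -3.19, interval -6.60 to -0.79) and 20 UMIs in YFP positive members, 113 CPM (68.9 to 174) against 296 CPM. Genes of antigen presentation by MHC class II had 0 of 7 genes called each way, but 6 of 7 were below other cells in both libraries, as were 32.3% of all genes tested, with medians of -0.96 and -0.46. H2-Aa was at 2940 CPM (2569 to 3351) against 6296 CPM and at 5752 CPM (5405 to 6117) against 7911 CPM, log2 -1.10 and -0.46. Cd74, the invariant chain, had log2 -0.82 and -0.55. The exception, the class II transactivator gene Ciita, had log2 -1.25 and 0.41.

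Of the 20 early response genes, which dissociation of tissue can induce, 0 were higher and 2 lower, Atf3 with 1 and 12 UMIs and Nr4a1 with 0 and 1, and the median was -1.04 and -0.29. With genes at 0 UMIs set to the level of 3 UMIs (39.2 CPM in YFP negative and 16.9 CPM in YFP positive members), or left out where other cells were below it, the medians were -0.98 and -0.29. Cxcl2 had 1 UMI and 24 UMIs in members, 135 CPM against 409 CPM in the YFP positive library. The part of dissociation in these levels was not tested. Further genes among the 15 with the lowest ratios, Evl, Ppp1r12a, Col14a1, Ppcdc, Skil, Lacc1 and Ms4a4a, had 0 to 2 UMIs in YFP negative and 2 to 6 UMIs in YFP positive members.

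Of 12 interferon response genes tested, Ly6e and Slfn5 were higher and 0 lower, with medians of 0.33 and 0.34 against -0.06 and -0.04 for all genes tested. Of 21 macrophage transcription factor genes tested, 0 were higher and Egr2 was lower, with Maf at log2 0.62 and 0.66. Of 24 lysosome and lipid genes, Ctsd and Pltp were higher and 2 lower, among them Lpcat2 with 0 and 3 UMIs. None of 12 iron handling genes (medians 0.27 and 0.39), 5 cell cycle genes, 85 ribosomal protein genes (-0.10 and -0.18) or 14 mitochondrially encoded genes was called each way, where a fixed 2-fold call on 2 libraries is a rule of size and not a test.

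Markers of other cell types were counted in members. Of 9 neutrophil genes, 7 were at 0 in both libraries and Mmp9 supplied 48 of 50 and 73 of 75 UMIs. Of 14 dendritic cell genes, 8 were at 0 in both and Cd209a supplied 24 of 36 and 51 of 106 UMIs, with Siglech at 2 and 32 UMIs. All 9 mast cell and eosinophil genes were at 0, and 12 T and NK cell genes gave 1 and 2 UMIs. Of 6 B cell genes, Ighm was the most abundant, at 327 against 316 CPM and at 355 against 325 CPM, with 0 calls in the list. The 6 adipocyte genes gave 0 and 4 UMIs. Thus the genes of mast cells, T and NK cells and, apart from Mmp9, neutrophils were at or near 0.

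Schwann cell, mural and fibroblast genes summed to lower levels in members than in other cells. The 12 Schwann cell genes summed to 274 against 773 CPM and 350 against 727 CPM, with 3 called lower, among them Mbp and Egr2, and Pmp22 the most abundant at 222 against 351 CPM and 226 against 315 CPM. Of the 12, 9 and 6 were at 0 in members. The 10 mural genes summed to 0 against 13.7 CPM and 5.64 against 142 CPM, with Acta2 and Tagln lower. The 16 fibroblast and nerve sheath genes summed to 65.3 against 86.3 CPM and 79.0 against 209 CPM, with Gsn the most abundant, 12 and 14 at 0 and 0 called. The 10 endothelial genes went in opposite directions, with 65.3 against 99.1 CPM and 102 against 67.9 CPM, Egfl7 the most abundant and 0 called. The part of these genes in the differences of members was not tested.

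The other cells were then split by Lyve1 and Ccr2 to compare members with cells that carry a resident or a monocyte gene. The groups were 327 and 865 cells with a Lyve1 UMI (median 2743 and 1885 UMIs), 78 and 864 cells with a Ccr2 UMI and 0 Lyve1 UMIs (median 2650 and 1800.5 UMIs), and 603 and 2232 remaining cells. Against Lyve1-positive cells 63 genes were higher in members in both libraries (1.14%) and 136 lower (2.46%). Against the remaining cells 73 were higher (1.32%) and 160 lower (2.89%). Against Ccr2-positive cells 173 were higher (3.13%) and 192 lower (3.47%). Retnla was at 444 and 520 CPM in Lyve1-positive, 1118 and 1632 CPM in Ccr2-positive and 309 and 472 CPM in remaining cells, all below the 6168 and 10744 CPM of members.

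Against the Lyve1-positive cells members had log2 ratios of 2.96 and 3.13 for Ly6e, 2.95 and 2.68 for Ednrb, 2.37 and 3.35 for Ccl8, 2.48 and 2.38 for Cd209a and 1.90 and 1.80 for Clec10a. The shared genes of resident macrophages differed less, with 0.42 and 0.07 for Mrc1, 0.40 and 0.27 for Cd163 and 0.81 and 0.80 for Folr2, while the Lyve1 level of this group follows from its choice. Cx3cr1 was also lower than in Lyve1-positive cells, by log2 -1.11 and -1.22. H2-Aa was lower too, with -0.95 and -0.30. Counting intervals of the ratio lay above 0 in both libraries for Retnla, Ly6e, Ednrb, Ccl8, Cd209a, Clec10a and Folr2, and also for Cd163 at its smaller ratio, whereas that of Mrc1 included 0 in the YFP positive library (-0.15 to 0.28).

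**Figure D4:**
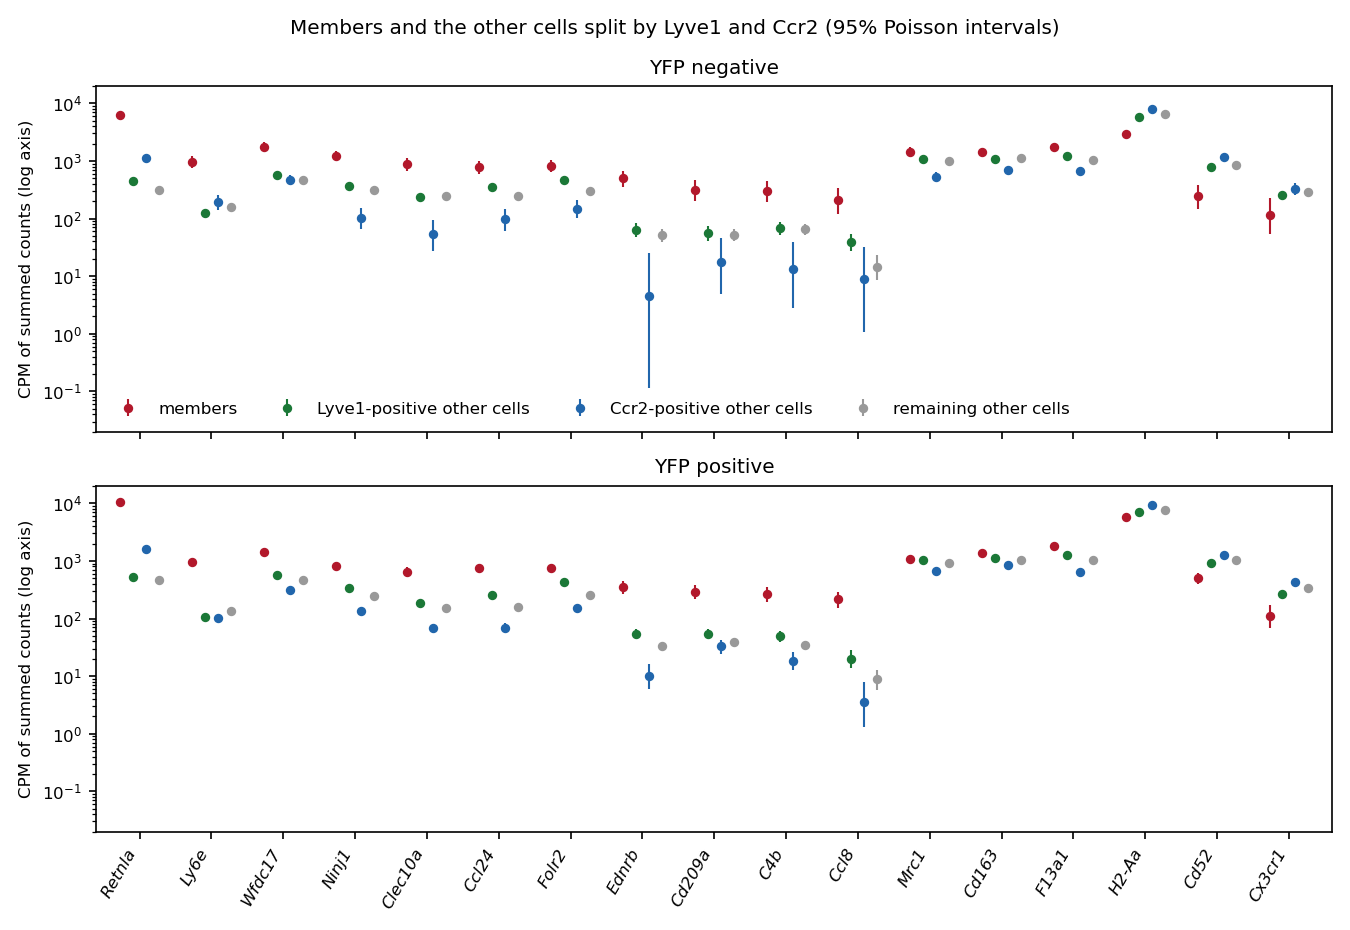
Level of 17 genes (CPM of summed counts, log axis) with 95% Poisson intervals in members (red), Lyve1-positive other cells (green), Ccr2-positive other cells without Lyve1 (blue) and remaining other cells (grey), for the YFP negative (top) and YFP positive (bottom) library. Members are the highest group from Retnla to Ccl8 in both libraries, lie close to Lyve1-positive cells for Mrc1 and Cd163, and are the lowest group for H2-Aa, Cd52 and Cx3cr1.

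Members were not alike. Retnla was found in 22 of 37 and 59 of 92 members, with a median of 3.62 and 23.8 and a maximum of 428 and 1029 UMIs per 10000 UMIs of the cell. At 1000 to under 4000 UMIs it was found in 57.7% of 26 and 62.3% of 69 members, against 18.2% of 797 and 19.96% of 2721 other cells. A background for Retnla was not measured, so other cells of like depth serve as a comparison only. They include cells rich in Retnla, described below, and Retnla was also in the free RNA. More than 1 in 3 members had 0 Retnla UMIs at these depths. Members with Retnla had fewer UMIs (median 1864.5 and 1655) than those without (2112 and 2065), so they were not the deeper cells.

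Members with and without Retnla were compared in genes outside the rule. The lipoprotein gene Apoe was lower in members with Retnla, by log2 -1.05 and -0.91, and C1qa by -0.45 and -0.24. Lyve1 was similar, with log2 0.20 and -0.04. H2-Aa was lower in YFP negative (-1.39) and higher in YFP positive members with Retnla (0.48), so this part of the pattern did not hold across the libraries. These ratios pool UMIs over cells and leave out the spread between cells.

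**Figure D5:**
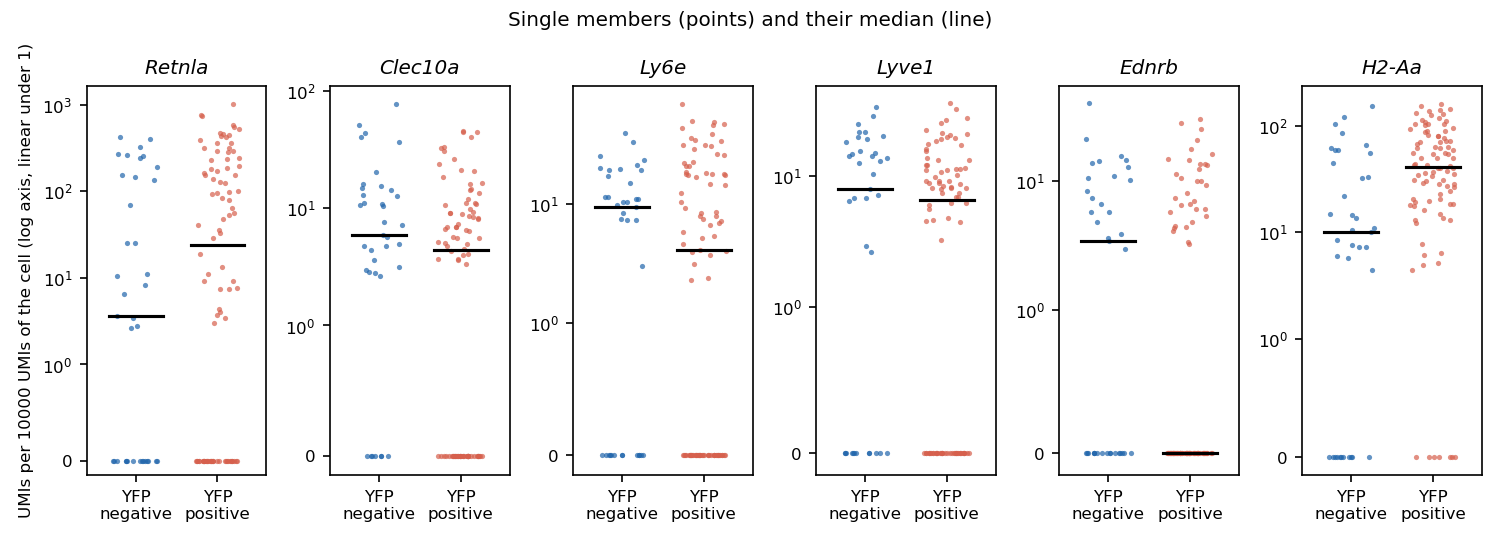
UMIs of 6 genes per 10000 UMIs of the cell (log axis that is linear under 1) in each member (points) with the median (line), for the YFP negative (blue) and YFP positive (red) library. Each gene is at 0 in part of the members, and Retnla runs from 0 to 428 and 1029 UMIs per 10000.

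A high level of Retnla was not confined to members, by a limit set with the levels known. Cells with at least 5 Retnla UMIs that made up at least 0.5% of the cell's UMIs numbered 38 and 203, of which 12 and 41 were members, 8 and 20 had 1 rule UMI, and 18 and 142 had 0. The YFP positive cells of this kind outside the rule had 789 CPM of Ccr2, 188 CPM of Clec10a and 14.2 CPM of Ccl8. The YFP negative ones had 286, 571 and 152 CPM of the same genes. Ccr2 in these cells was above that of members in both libraries, where it was at 13.1 CPM (1 UMI) and 113 CPM.

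The share of members was compared between the YFP libraries. It was 3.54% and 2.27%, but the libraries differed in depth, and with each cell thinned to 500 UMIs it was 1.15% (12 of 1045, exact interval 0.595 to 1.997) and 0.790% (32 of 4053, 0.541 to 1.11). With at least 1 rule UMI after thinning it was 3.16% and 2.81%. The intervals of the thinned shares overlap in both cases. By depth, the share was 6.67% (10 of 150, 3.24 to 11.9) against 1.69% (20 of 1184, 1.03 to 2.60) at 500 to under 1000 UMIs, 3.13% against 1.85% at 1000 to under 2000 UMIs, 3.18% against 3.27% at 2000 to under 4000 UMIs and 1.39% (1 of 72) against 3.80% (3 of 79) at 4000 or more. These intervals are over cells of 1 library each and do not compare the conditions.

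Members of the YFP libraries were then set side by side over 1371 genes with a mean of at least 100 CPM in members. Of these, 46 were at least 2-fold higher in YFP positive members (3.36%) and 101 at least 2-fold lower (7.37%). The rule genes, whose levels follow in part from the rule, were at 797 and 773 CPM (Cd209f), 366 and 338 CPM (Cd209d), 379 and 361 CPM (Fcna), 431 and 276 CPM (Cd209g) and 157 and 220 CPM (Cd209b). The most uneven genes with a higher level in YFP positive members were the heat shock genes Hspa1b, with 1 and 51 UMIs, and Hspa1a, with 6 and 135 UMIs (log2 3.26, interval 2.11 to 4.70), Ccl4 with 2 and 64 UMIs, Dram2 with 2 and 33 UMIs and Siglech with 2 and 32 UMIs. Of the Ccl4 UMIs 27 came from 1 cell. In other cells the log2 ratio of the libraries was 0.92 for Hspa1b, 0.52 for Hspa1a, 0.63 for Ccl4 and -0.22 for Siglech, and whether members differ from them here was not tested.

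At the other end, Ccl7 had 26 and 11 UMIs (log2 -2.43), where other cells had 0.32 and 12 of the 26 UMIs came from 1 cell, and mt-Nd4l, a mitochondrially encoded subunit of respiratory complex I, had 28 and 13 UMIs (log2 -2.30), where other cells had -1.51. The other 3 of the 5 lowest were predicted genes. Retnla was higher in YFP positive members by log2 0.80 (0.65 to 0.95), and in other cells by 0.84. H2-Aa was higher by 0.97 (0.76 to 1.18), against 0.33 in other cells, H2-Ab1 by 0.82 against 0.38, and Cd74 by 0.67 against 0.40. Fxyd2 and Lyve1 were lower, with log2 -0.80 and -0.59, against 0.03 and -0.41 in other cells. With 1 pool and 1 library per condition, YFP status and library cannot be told apart.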

How the data were processed

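Per the labels and methods, cells were captured with the 10x Chromium v2 kit, and reads were mapped by the authors to GRCm38 with the Cell Ranger pipeline (3.0.2 in the submitters' processing notes, which also name Seurat 2.2.0; the study's methods give an earlier version). The authors deposited unfiltered matrices of UMI counts, not normalised, for all barcodes. Barcodes with at least 500 UMIs and 200 genes were kept as cells. No cell annotation was used and doublets were not called. Counts were summed over members and over other cells of each library and scaled to 1000000 UMIs (CPM), with exact Poisson intervals, Clopper-Pearson intervals for shares, and log2 ratios with 1 CPM added and conditional binomial intervals (numpy 2.4.6, scipy 1.17.1, pandas 2.3.3). A gene was called when it passed 2-fold in the same direction in both libraries at a mean of at least 20 CPM. PCR duplicates are removed by UMIs, and intervals cover counting error only. Thinning drew 500 UMIs from each cell. The named genes were the rule genes, 3 markers, the 15 genes each way with the largest smaller ratio at a mean of at least 50 CPM, genes called in 30 gene lists, and 5 each way between the YFP libraries at a mean of at least 100 CPM. The members, lists and alternatives were chosen with earlier results of these data known. Of 54838 gene identifiers, 54723 (99.8%) were matched to GENCODE M21. Promoter windows came from RefSeq, which had an entry for 9 of the genes looked up. A few genes that these rules name are not reported here.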

Additional observations from a re-analysis of the deposited data

Results flagged for a closer look

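Barcodes below the depth limit of a cell also passed the rule. Of 394 YFP negative barcodes with 100 to under 500 UMIs, 3 had at least 2 rule UMIs, and of 1827 YFP positive ones, 12 did. Retnla was at 24194 CPM in these 3 and 1208 CPM in the rest, and at 10267 CPM in these 12 and 1260 CPM in the rest. Clec10a, Ccl8 and Lyve1 were at 0 in the 3 YFP negative barcodes, against 542, 11.3 and 260 CPM in the rest, and at 1027, 770 and 513 CPM in the 12 YFP positive ones, against 301, 35.9 and 203 CPM. These barcodes were outside every comparison above.

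Some genes moved in opposite directions in the libraries when members were split by Retnla or Lyve1, and none of these differences was tested. With Retnla against without, the log2 ratio was -1.39 in YFP negative and 0.48 in YFP positive members for H2-Aa, -1.07 and 0.55 for H2-Ab1, and -1.05 and 0.48 for Cd74. With Lyve1 against without, it was -0.76 and 0.19 for Retnla, -0.71 and 1.01 for Wfdc17, -2.55 and 1.78 for Ccl8, 0.39 and -0.19 for Apoe, and 0.44 and -0.37 for C1qa. Median UMIs of members with and without Lyve1 were 2603 and 1122.5 in the YFP negative and 1858 and 1781 in the YFP positive library, and the part of depth was not tested.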

How the results depend on the processing

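The YFP groups are 1 library each from the same pooled nerves, a single pair without a replicate. Members were chosen from the cells they are compared with in each library, so no result comes from a test. Of 313 values under another setting, 212 stayed within the counting interval or within 1.5 times, 101 moved and 0 reversed. Only a log2 ratio can change sign, so the counts and shares among these values could not reverse. A ratio between YFP positive and YFP negative members under 2-fold was not counted as reversed whatever its sign. Settings on different rule genes, without the top member, mean CPM of at least 200 and shared barcodes were chosen after seeing the data. The log2 ratio ran over its settings from 3.33 to 4.39 (YFP negative) and 2.84 to 4.37 (YFP positive) for Retnla, 1.43 to 2.20 and 1.59 to 2.53 for Clec10a, and 2.16 to 3.53 and 3.06 to 4.87 for Ccl8. The number and share of YFP negative members was 89 (8.52%) with at least 1 rule UMI, 18 (1.72%) with 3, 10 (0.957%) with 5, 9 (0.861%) with Fcna alone, 2.39% with 2 different rule genes and 1.15% after thinning. For YFP positive members it was 250 (6.17%), 50 (1.23%), 23 (0.567%), 17 (0.419%), 52 (1.28%) and 0.790%, with 1.83% for the Cd209 genes alone and 2.81% for at least 1 UMI after thinning. Genes called higher and lower, 73 and 152, became 20 and 22 with at least 1 rule UMI, 148 and 583 with 5, 194 and 853 with Fcna alone, 121 and 289 with rule UMIs as at least 0.1% of the cell, 113 and 289 with 2 different rule genes, 45 and 68 with 10 CPM added, 30 and 38 at a mean of 50 CPM, 11 and 5 at 200 CPM, 361 and 2366 with no filter beyond 1 UMI, 309 and 427 at 1.5-fold, and 19 and 50 at 3-fold. Genes lower were also 312 with 3 rule UMIs and 255 with the mean over cells. Of the list genes, 24 higher and 17 lower became 39 and 31 at 1.5-fold. Genes higher in YFP positive than YFP negative members, 46, became 73 with the mean over cells and 101 with 3 rule UMIs. The cause of these moves was not tested beyond the fewer cells or genes that a setting keeps. With 76522 UMIs, a gene at 0 in YFP negative members may be at up to 39.2 CPM.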
